A study of Mus musculus with 6 samples.

Results

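The cytochrome P450 (Cyp), aldehyde dehydrogenase (Aldh), aldo-keto reductase (Akr), glutathione S-transferase (Gst), UDP-glucuronosyltransferase (Ugt) and sulfotransferase (Sult) genes were examined in cultured mouse pancreatic cancer cells with and without knockdown of Brca2. Members were every gene of the count table whose symbol begins with one of these 6 family names, leaving out the sterol demethylase Cyp51 and symbols that begin with Cyp but carry no number after it. The rule took 66 of 10616 genes, which is 0.622% of the table, and used no measured value beyond a gene being listed. There were 20 Cyp, 14 Aldh, 9 Akr, 16 Gst, 4 Ugt and 3 Sult genes.

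KPC cells are a mouse pancreatic ductal adenocarcinoma line and came to the study from the Tuveson laboratory. The shBrca2 group carried a short hairpin RNA against mouse Brca2 in the lentiviral vector pLKO.1, and the shControl group carried a non-targeting hairpin in the same vector, so that both groups had been infected and selected with puromycin. Both were grown in ordinary growth medium, live cells were sorted as negative for propidium iodide, and RNA was counted at the 3′ end of transcripts by a variation of MARS-seq in 3 libraries of each group. The model is a single cell line with 1 catalogued Brca2 hairpin reagent. Whether the selected cells were cloned, and whether the 3 libraries of a group came from separate cultures, is not given in the labels, while the supplement of the study gives mice as the unit for these cells although its methods describe a culture. What a replicate was is therefore unclear, and p-values measure the spread between these libraries, which may be technical.

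These families carry out much of the chemistry by which cells alter drugs, steroids, retinoids and reactive aldehydes. P450 enzymes insert oxygen, aldehyde dehydrogenases oxidize aldehydes to acids, and aldo-keto reductases reduce aldehydes and ketones to alcohols. The transferases then attach glutathione, glucuronic acid or sulfate, which makes the product easier to export. The families are best known from liver, intestine and steroid-producing glands, and many of their genes lie in tandem arrays of close copies.

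Total counts ranged from 1519340 to 2452467 per library. Brca2 had 33, 52 and 33 raw counts in the shControl libraries and 10, 11 and 14 in the shBrca2 libraries, and the DESeq2 likelihood ratio test gave it an adjusted p of 0.0290 (log2 fold change -1.61, SE 0.44). The adjusted p of Brca2 rose to 0.152 without shBrca2 replicate 2, 0.233 without shBrca2 replicate 3 and 0.371 without shControl replicate 2. On the first principal component, which held 41.1% of the variance, shControl replicate 3 lay at one end and shBrca2 replicates 1 and 3 at the other. The groups interleaved on it. As a share of its range, shControl replicate 1 lay at -0.157 and shBrca2 replicate 2 at 0.0208. All 8 ductal epithelium markers were in the table, led by the keratins Krt18 and Krt19 with mean normalized counts of 9184 and 4227, while the ductal surface marker Epcam averaged only 6.52. Alb, which defines hepatocytes, and all 3 endothelial markers were not in the table, and 1 of 9 fibroblast and 1 of 6 immune markers was. A bulk library cannot tell fewer cells of a kind from less RNA per cell.

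As a whole the enzymes held about 1% of all counts, and this share was slightly larger in shBrca2. The summed counts of the 66 members were 1.11%, 1.05% and 1.07% of the library in shControl replicates 1, 2 and 3 and 1.22%, 1.18% and 1.17% in shBrca2 replicates 1, 2 and 3. The groups did not overlap, and the ratio of the means was 1.11. A few genes set this level: Gsto1, Gsta4, Gstm1, Akr1b8 and Akr1a1 gave 76.1% of all member counts. Because 3′ end counts do not scale with transcript length, these shares compare transcript ends rather than bases.

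Glutathione transferases were the most abundant family, at 0.621% ± 0.0325 (SD, n = 3) of counts in shControl and 0.710% ± 0.0249 (SD, n = 3) in shBrca2. The aldo-keto reductases held 0.266% ± 0.00427 in shControl and 0.250% ± 0.00294 in shBrca2 (SD, n = 3), and were the family with a ratio under 1, at 0.939. Their sum follows the abundant Akr1b8 and Akr1a1, which gave 87.8% of it. The P450 share was 0.0420% ± 0.00244 in shControl and 0.0558% ± 0.00472 in shBrca2 (SD, n = 3), a ratio of 1.33. Cyp2c65 carried most of this difference, and without it the P450 ratio was 1.08. The Ugt ratio was 1.34, or 1.20 without Ugt2b34, that of Sult 1.16 and that of Aldh 1.07, and the Aldh libraries overlapped between the groups. No test was run on these sums.

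**Figure D1:**
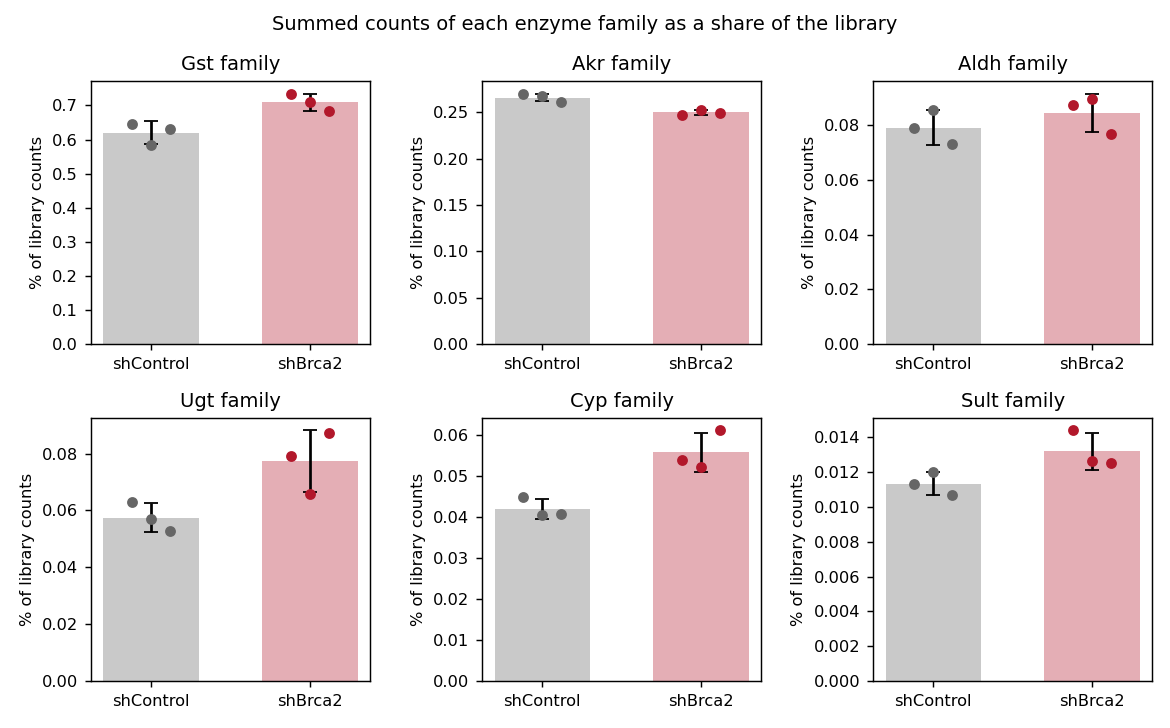
Summed counts of each enzyme family as a percent of the library's total count (vertical axes, starting at 0, with a different scale in each panel). Points are libraries, bars the mean of 3 libraries and error bars the SD. The Gst, Cyp, Ugt and Sult points of shBrca2 sit above those of shControl, the Akr points sit below, and the Aldh points overlap.

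Taken gene by gene, 6 members were called higher in shBrca2 and 0 lower by DESeq2, and 6 and 0 by edgeR. The 2 sets differed, since edgeR called Gstt1 and did not call Sult1d1. The call required that the DESeq2 likelihood ratio test gave an adjusted p (Benjamini-Hochberg) under 0.1, that the log2 fold change exceeded 0.5 in size, and that the mean normalized count was over 5. An adjusted p was given to 62 members, and the 4 others (Ugt2b36, Cyp2c55, Cyp4v3 and Cyp3a13) had too few counts. The 6 called genes were Cyp2c65, Cyp4f14, Akr1c12, Akr1c13, Ugt2b35 and Sult1d1, which is 9.68% of the members tested, where 0.77% of all 9997 genes tested were called higher and 0.5% lower. The Aldh and Gst families had 0 called of 14 and of 16 tested by DESeq2, where 2 Aldh genes and 3 Gst genes had an unadjusted p under 0.05, and the edgeR quasi-likelihood test called 1 Gst gene, Gstt1.

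Over all tested members, with the 6 called genes counted in, the values leaned higher. The median log2 fold change of the 62 tested members was 0.21, beside -0.001 over all genes tested, and 42 members (67.7%) had a value above 0, beside 49.8% of all genes. An unadjusted p under 0.05 was found for 16 members that were higher and 1 that was lower. The whole table gave 4.55% and 4.11%. Of the 17 members at that threshold, 11 were not called. The libraries of the groups did not overlap for 21 members that were higher (33.9% of those tested, beside 10.2% of all genes) and 4 that were lower (6.45%, beside 10.4%).

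This lean was not the same at every level of expression. Among the 23 tested members with a mean normalized count under 20 the median log2 fold change was 0.60, where all tested genes at that level had 0.08. Among the 20 members over 100 it was 0.10, and 17 of these 20 had an absolute value under 0.5. The table lists only genes with at least 6 counts in some library, so a scarce gene that is near 0 in one group is listed through the group in which it is high. This was so for 7 members through shBrca2 (Cyp26b1, Cyp2c55, Cyp2c68, Cyp2c70, Sult1d1, Ugt2b35 and Ugt2b36) and for 2 through shControl (Cyp4f17 and Cyp4v3). Of the 6 called members, Ugt2b35 and Sult1d1 had 2 raw counts or fewer in each shControl library, and counts of members that passed are a description of what the table holds.

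**Figure D2:**
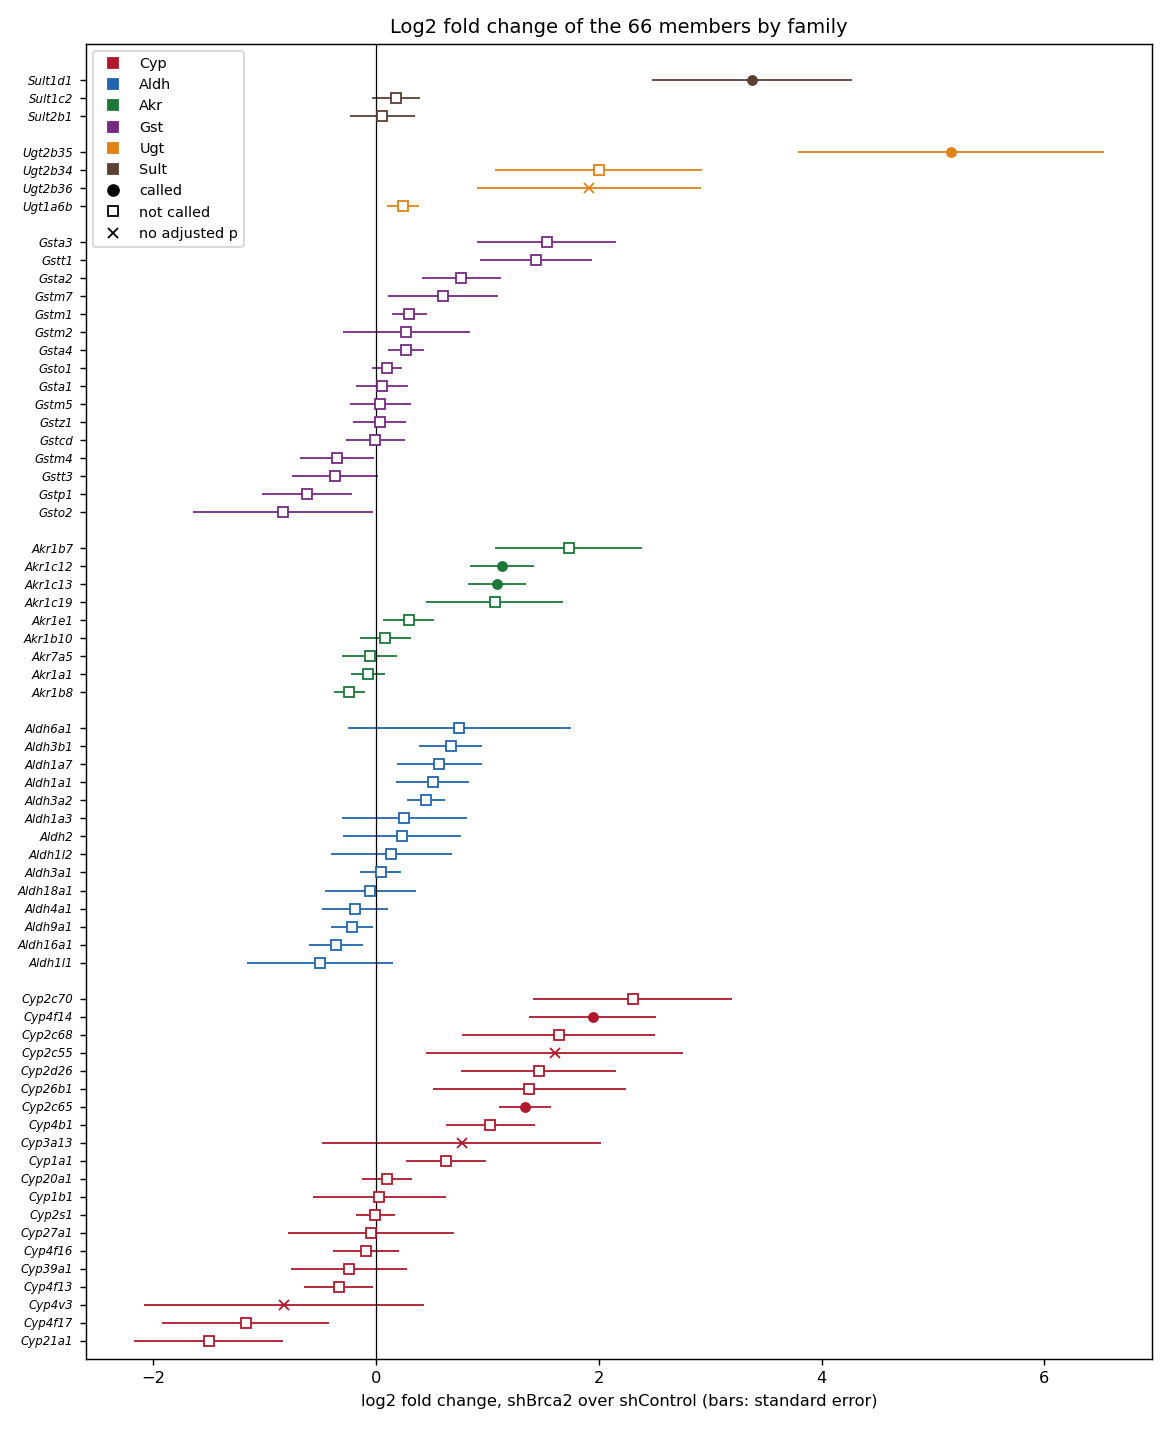
Log2 fold change of shBrca2 over shControl for each of the 66 members (horizontal axis, bars are the standard error), grouped by family and ordered by value. Filled circles are the 6 called members, open squares members tested and not called, and crosses the 4 members without an adjusted p. All 6 filled circles lie above 1, and the least certain values belong to scarce genes such as Ugt2b35.

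The glucuronosyltransferases join glucuronic acid to steroids, bile acids and drugs. Ugt2b35 had 0, 1 and 0 raw counts in the shControl libraries and 8, 11 and 17 in the shBrca2 libraries. The gene was all but absent from every shControl library and present in every shBrca2 library. The ratio of summed counts per summed size factor was 39.1, with an exact 95% counting interval from 6.58 to 1586. The DESeq2 likelihood ratio test gave an adjusted p of 0.00343. Only 2 of the 6 fits that left out a library gave Ugt2b35 an adjusted p, and it was called in both (at 0.0161 and 0.0306).

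Ugt2b34, the neighbor of Ugt2b35, was far more abundant and varied widely. Its normalized counts were 111, 62.1 and 13.8 in shControl and 365, 86.0 and 297 in shBrca2. Replicates 1 and 3 of shBrca2 were highest and shControl replicate 3 was lowest, which are also the libraries at the ends of the first principal component, and shBrca2 replicate 2 fell below shControl replicate 1. The log2 fold change was 2.0 ± 0.93 (SE) and was not called (DESeq2 adjusted p = 0.529). Without strand, reads of a noncoding gene on the opposite strand could also enter its count. Whether this spread has a part in the difference was not tested. Ugt2b36 had 1, 3 and 2 raw counts in shControl and 4, 8 and 9 in shBrca2, a count ratio of 3.80 (exact 95% counting interval 1.48 to 11.5), without an adjusted p.

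The remaining gene of the family, Ugt1a6b, gave 88.7% of the Ugt counts. Its normalized counts were 1221, 1108 and 1047 in shControl and 1255, 1257 and 1471 in shBrca2, so the groups did not overlap, but the log2 fold change of 0.24 ± 0.14 (SE) was not called (DESeq2 adjusted p = 0.700). The Ugt1a genes share their last exons, and every window of 31 bases in the last 500 of this transcript also occurs in other Ugt1a genes, so the count stands for the Ugt1a locus rather than for this first exon. The tails of Ugt2b34, Ugt2b35 and Ugt2b36 shared no such window with another gene.

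Sulfotransferases move sulfate onto phenols, catecholamines and steroids. Sult1d1, which sulfates catecholamines and other phenols in rodents, had 1, 2 and 2 raw counts in shControl and 15, 22 and 9 in shBrca2. Every shBrca2 library lay above every shControl library. The ratio of summed counts per summed size factor was 9.99 (exact 95% counting interval 3.98 to 32.2) and the DESeq2 adjusted p was 0.0117. The adjusted p was 0.126 without shControl replicate 2, and 3 of the 4 leave-one-out fits that gave a value called the gene. Sult1d1 was not called by edgeR. Sult1c2, which gave 61.5% of Sult counts, stood at 0.18 ± 0.22 (SE) on the log2 scale, and Sult2b1, the cholesterol sulfotransferase of epithelia, at 0.06 ± 0.29 (SE).

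Ugt2b35 and Sult1d1 lie in the same stretch of chromosome 5. On GRCm38.p6 the 4 members there run from Ugt2b34 at chr5:86889770-86906937 through Ugt2b35 at chr5:87000860-87013274 and Ugt2b36 to Sult1d1 at chr5:87554650-87569006. All 4 had a log2 fold change above 0, beside 49.8% of all genes tested. Of the 3 tested, 2 were called higher, where 0.77% of all genes tested were. The other genes of the table within 1 Mb of Ugt2b35 or Sult1d1 were Cenpc1 (log2 fold change 0.28), Ythdc1 (0.18), Utp3 (0.21) and Rufy3 (-0.66), and none of these was called. Ugt2b35, Ugt2b36 and Sult1d1 reached 6 counts in shBrca2 libraries only and could be listed only with more counts there, and Ugt2b34 overlapped between the groups, so the shared direction of the 4 is a description of listed genes.

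**Figure D3:**
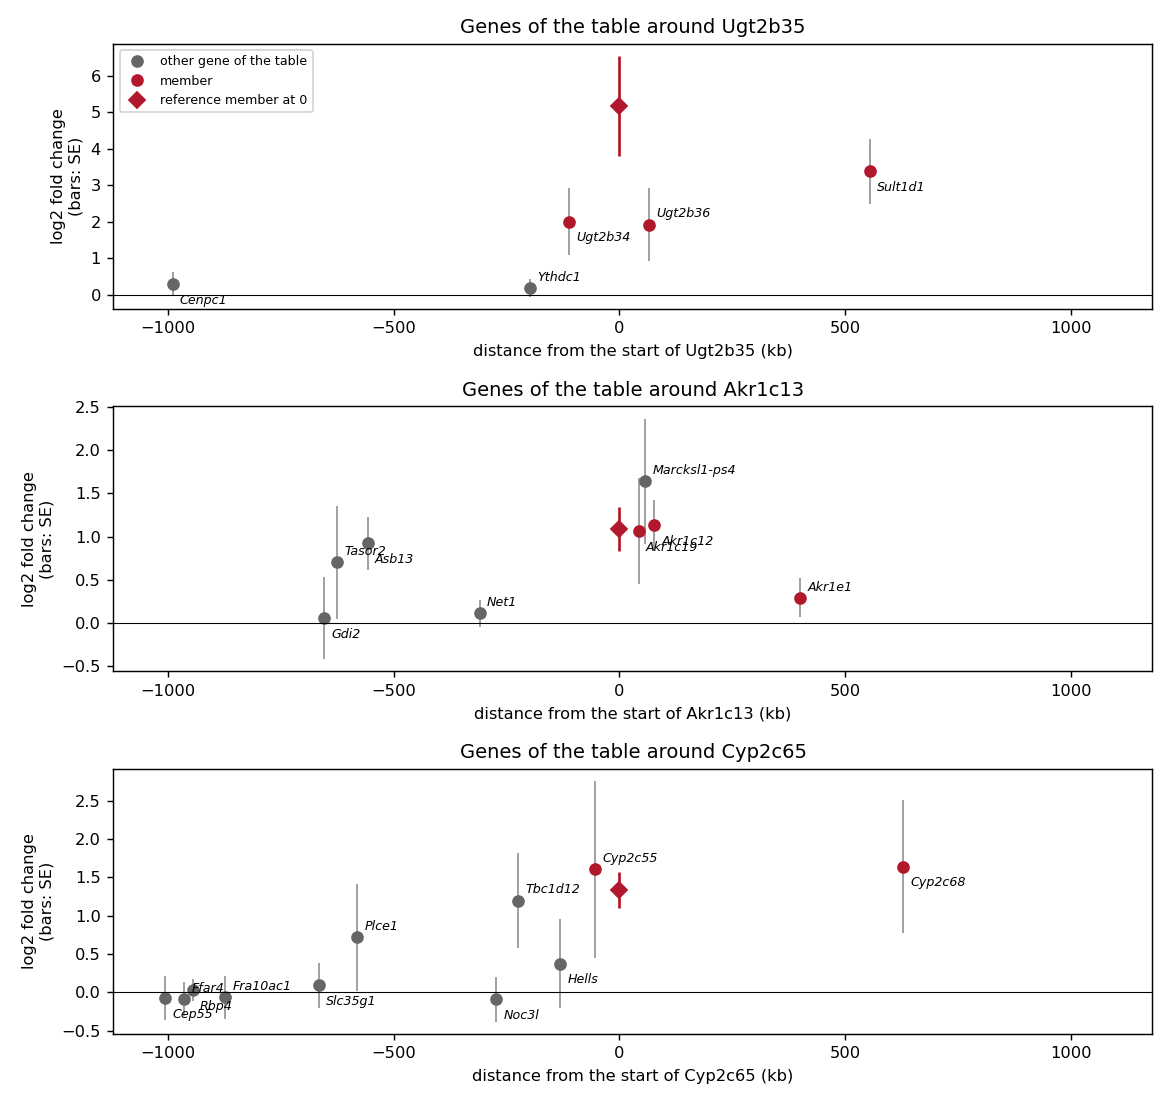
Log2 fold change of shBrca2 over shControl (vertical axes, bars are the standard error) for genes of the table within 1 Mb of Ugt2b35, Akr1c13 and Cyp2c65, against distance from the start of each reference gene in kb (horizontal axes). Red marks members of the enzyme families, and the diamond marks the reference gene. The members around Ugt2b35 lie between 1.91 and 5.16 while Cenpc1 and Ythdc1 lie near 0, whereas around Akr1c13 the pseudogene Marcksl1-ps4 and Asb13 lie as high as the members.

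Of the P450 genes, 2 of the 17 tested were called higher (11.8%), where 0.77% of all genes tested were. Cyp2c65, a P450 of the arachidonic acid metabolizing Cyp2c subfamily that is expressed in mouse intestine, had normalized counts of 202, 125 and 116 in shControl and 383, 289 and 444 in shBrca2. The lowest shBrca2 library stood well above the highest shControl library. As for Ugt2b34, shBrca2 replicates 1 and 3 were highest and shControl replicate 3 lowest, the libraries at the ends of the first principal component. Unlike on that component, shBrca2 replicate 2 lay beyond shControl replicate 1. The part of this spread in the difference was not tested. The mean rose from 148 ± 47.4 to 372 ± 77.8 (SD, n = 3). On the log2 scale the rise was 1.34 ± 0.23 (SE), with a DESeq2 adjusted p of 1.52e-05. Cyp2c65 was called in all 6 leave-one-out fits, with adjusted p-values from 2.94e-08 to 0.0136. In its last 500 bases, 11.7% of windows also occurred in the paralog Cyp2c66 or a further copy.

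The other Cyp2c genes were scarce, and none was called. Cyp2c55, Cyp2c68 and Cyp2c70 each reached the 6 counts needed for listing in shBrca2 libraries only, so that their direction was set by the listing. Cyp2c70, which makes the muricholic bile acids of mice, had 1, 3 and 3 raw counts in shControl and 8, 6 and 18 in shBrca2. The groups did not overlap, with a count ratio of 4.96 (exact 95% counting interval 2.15 to 13.3) and a DESeq2 adjusted p of 0.292. Cyp2c68 had 2, 4 and 3 against 5, 12 and 9 raw counts (log2 fold change 1.64 ± 0.87 SE, DESeq2 adjusted p = 0.592), and 69.6% of its tail windows were shared with paralogs. Cyp2c55 had 3, 1 and 1 against 4, 6 and 4 raw counts, a count ratio of 3.04 (exact 95% counting interval 1.03 to 10.8), without an adjusted p.

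The promoters of Cyp2c65, Cyp2c68 and Cyp2c70 are shown because all 3 hold the letters CAAAGTCCA, a site of the liver and gut factor HNF4, marked in capitals. Both strands were searched in windows from 250 bases before to 50 after the transcription start. The stretches of 62 bases come from RefSeq on GRCm38.p6, at chr19:39060845-39060906 on the plus strand, chr19:39741162-39741223 on the minus strand and chr19:40187334-40187395 on the minus strand.
Cyp2c65: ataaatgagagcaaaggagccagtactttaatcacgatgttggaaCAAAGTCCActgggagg
Cyp2c68: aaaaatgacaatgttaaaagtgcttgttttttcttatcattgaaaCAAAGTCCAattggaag
Cyp2c70: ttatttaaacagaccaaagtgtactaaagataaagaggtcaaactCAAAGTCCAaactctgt
The letters begin 116, 77 and 64 bases before the start and occurred, on either strand, in 3 of the 57 members with a window (5.26%) and in 0.555% of the 27025 genes with a RefSeq window. The 3 genes are paralogs of 1 array, and their promoters were 68.3% to 70.5% identical where aligned, so they are not 3 separate cases. A match of letters is a description and not a site of binding. The window of Cyp2c55 did not hold them. Hnf4a itself had a normalized count of 614 ± 30.0 in shControl and 772 ± 38.3 in shBrca2 (SD, n = 3), a log2 fold change of 0.33 that was not called (DESeq2 adjusted p = 0.422).

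Cyp4f14, a fatty acid and leukotriene omega-hydroxylase, had normalized counts of 6.06, 6.71 and 4.94 in shControl and 20.4, 21.7 and 26.1 in shBrca2. The groups lay far apart for so scarce a gene. The log2 fold change was 1.95 ± 0.57 (SE) and the DESeq2 adjusted p 0.0539. The call was lost in each of the 5 leave-one-out fits that gave a value, with an adjusted p of 0.136 without shBrca2 replicate 1, 0.444 without shBrca2 replicate 3, 0.137 without shControl replicate 1, 0.248 without shControl replicate 2 and 0.225 without shControl replicate 3, while the fold change stayed between 1.83 and 2.06.

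The listed Cyp4f neighbors of Cyp4f14 on chromosome 17 had log2 fold changes below 0. Cyp4f17 had normalized counts of 12.1, 8.39 and 9.89 in shControl and 5.45, 4.73 and 3.48 in shBrca2, with a log2 fold change of -1.17 ± 0.75 (SE). It reached the 6 counts needed for listing in shControl libraries only, so that its direction was set by the listing. Cyp4f13 stood at -0.33 ± 0.31 (SE) and Cyp4f16 at -0.09 ± 0.30 (SE), and none of these 3 was called. The tails of Cyp4f17 and Cyp4f13 shared 25.1% and 12.3% of their windows with other Cyp4f genes, among them Cyp4f14. In all, 1 of the 4 members of this array had a value above 0.

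Cyp2s1 was the most abundant P450 in the shControl libraries by mean 3′ end counts, and second to Cyp2c65 in the shBrca2 libraries. It is an epithelial P450 that acts on retinoids and eicosanoids. Its normalized counts were 250, 291 and 267 in shControl and 249, 286 and 267 in shBrca2, nearly the same set of values, with a log2 fold change of -0.01 and a 95% interval from -0.35 to 0.33. Cyp20a1, a P450 without a settled substrate, stood at 0.10 ± 0.22 (SE) and also was not called.

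Other P450 genes with an unadjusted p under 0.05 were Cyp4b1, Cyp2d26 and Cyp21a1. Cyp4b1, which oxidizes fatty acids and activates some protoxins, had 14, 26 and 18 raw counts in shControl and 27, 37 and 44 in shBrca2, without overlap (log2 fold change 1.03 ± 0.40 SE, DESeq2 adjusted p = 0.314), but it shares 24.9% of its tail windows with other genes and overlaps Cyp4a32 on the opposite strand. Cyp2d26 had a log2 fold change of 1.46 ± 0.70 (SE, DESeq2 adjusted p = 0.525), and 35.1% of its tail windows were shared with paralogs. Cyp21a1, the steroid 21-hydroxylase of the adrenal cortex, was the only member lower at that unadjusted threshold. Its raw counts were 9, 25 and 17 in shControl and 5, 7 and 4 in shBrca2 (log2 fold change -1.50 ± 0.67 SE, DESeq2 adjusted p = 0.447). Cyp21a1 shares 24.0% of its tail windows with other genes and overlaps the pseudogene Tnxa on the opposite strand, and since it is not known whether reads were counted by strand, its count is uncertain.

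P450 genes that answer to the aryl hydrocarbon receptor were not called. Cyp1a1, the classic target of that receptor, had normalized counts of 31.3, 26.8 and 22.7 in shControl and 42.2, 44.4 and 38.3 in shBrca2, which did not overlap (log2 fold change 0.63 ± 0.36 SE, DESeq2 adjusted p = 0.665). Cyp1b1 stood at 0.03 ± 0.60 (SE). Cyp26b1, which degrades retinoic acid, had a log2 fold change of 1.38 ± 0.86 (SE) at a mean normalized count of 5.52.

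**Figure D4:**
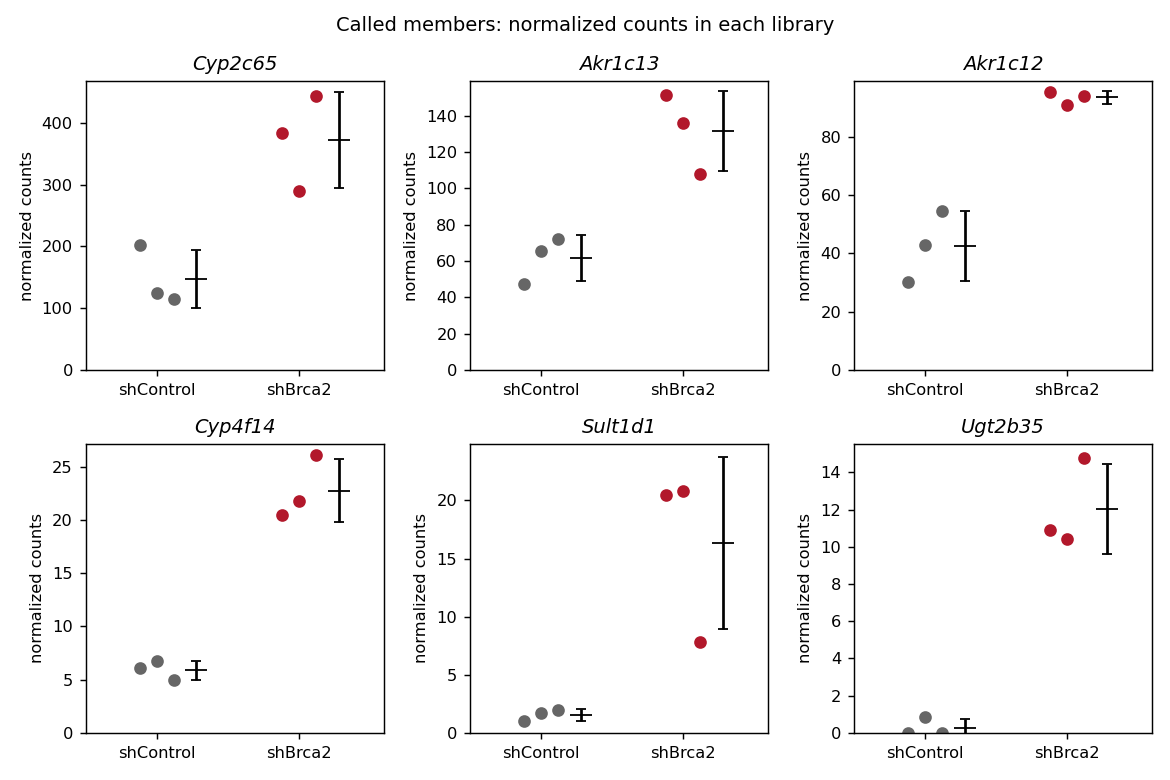
Normalized counts of the 6 called members in each library (vertical axes, starting at 0, with a different scale in each panel). Points are libraries, and the bar beside them is the mean with its SD over 3 libraries. In every panel the lowest shBrca2 point lies above the highest shControl point, with Akr1c12 at 30.3 to 54.4 against 90.7 to 95.3.

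Among the 9 aldo-keto reductases tested, 2 were called higher (22.2%), where 0.77% of all genes tested were. These were Akr1c12 and Akr1c13, paralogs of the hydroxysteroid dehydrogenase subfamily. Akr1c12 had normalized counts of 30.3, 42.8 and 54.4 in shControl and 95.3, 90.7 and 94.0 in shBrca2. Akr1c13 had 47.5, 65.4 and 72.2 in shControl and 151, 136 and 108 in shBrca2. The groups did not overlap for either gene, and the 3 shBrca2 values of Akr1c12 were close together.

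The log2 fold change was 1.13 ± 0.29 (SE) for Akr1c12 and 1.09 ± 0.26 (SE) for Akr1c13, with DESeq2 adjusted p-values of 0.0139 and 0.00622. The call of Akr1c12 was lost without shBrca2 replicate 1 (adjusted p = 0.101), shBrca2 replicate 3 (0.167), shControl replicate 1 (0.117) and shControl replicate 2 (0.155), and that of Akr1c13 without shBrca2 replicate 1 (0.111), at fold changes from 0.93 to 1.34. In their last 500 bases, 25.7% of the windows of Akr1c12 and 21.9% of those of Akr1c13 occur in the other gene or a further copy, so their counts are not fully separate.

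The start regions of this pair are also alike, and the first 210 bases of both RefSeq promoter windows (GRCm38.p6, chr13:4279440-4279649 on the minus strand for Akr1c12 and chr13:4190937-4191146 on the plus strand for Akr1c13) are shown for that reason. Capitals mark bases that differ between the 2 stretches or have no partner in the alignment. Of 206 aligned bases 197 were identical, which is 95.6%.
Akr1c12: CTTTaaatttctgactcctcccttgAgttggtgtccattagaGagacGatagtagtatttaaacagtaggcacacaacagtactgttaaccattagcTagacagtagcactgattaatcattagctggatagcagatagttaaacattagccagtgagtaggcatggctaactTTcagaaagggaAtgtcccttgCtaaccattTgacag
Akr1c13: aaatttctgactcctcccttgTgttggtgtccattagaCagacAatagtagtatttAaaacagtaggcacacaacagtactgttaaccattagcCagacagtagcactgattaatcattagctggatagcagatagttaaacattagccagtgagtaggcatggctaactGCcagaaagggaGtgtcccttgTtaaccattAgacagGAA

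Akr1c19 lies between the pair on chromosome 13 and had a similar fold change with a much wider spread. Its normalized counts were 28.3, 64.6 and 128 in shControl and 146, 197 and 119 in shBrca2. The groups overlapped, since shControl replicate 3 exceeded shBrca2 replicate 3. The log2 fold change was 1.07 ± 0.61 (SE) and was not called (DESeq2 adjusted p = 0.678), and the gene was called only when shControl replicate 3 was left out. Akr1e1, at the far end of the array, stood at 0.29 ± 0.23 (SE).

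Genes of other families near this array were not called either, but some had fold changes as large. Asb13, a ubiquitin ligase adaptor, had a log2 fold change of 0.92 ± 0.31 (SE, DESeq2 adjusted p = 0.155). The pseudogene Marcksl1-ps4 had 1.64 ± 0.73 (SE, DESeq2 adjusted p = 0.447). In GENCODE vM39 this pseudogene overlaps Akr1c19 on the same strand, while their RefSeq spans on GRCm38.p6 lie close together without overlap. Net1 stood at 0.11 ± 0.16 (SE) and Gdi2 at 0.06 ± 0.48 (SE), neither distinct from 0. All 8 listed genes within 1 Mb of Akr1c13, other Akr members among them, had a value above 0, beside 49.8% of all genes tested.

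Akr1b7, which reduces the aldehydes left by steroid side chain cleavage and lipid peroxidation, had 6, 8 and 2 raw counts in shControl and 13, 18 and 17 in shBrca2. The groups did not overlap, and the log2 fold change was 1.73 ± 0.66 (SE, DESeq2 adjusted p = 0.283), with 21.1% of its tail windows shared with other genes. Its abundant neighbor Akr1b8 had normalized counts of 3324, 3231 and 3009 in shControl and 2534, 2548 and 3023 in shBrca2, with a log2 fold change of -0.24 ± 0.14 (SE). Of these, shBrca2 replicate 3 lay within the shControl range and shBrca2 replicates 1 and 2 below it. Akr1a1, which reduces a broad range of aldehydes, stood at -0.07 ± 0.15 (SE), and Akr7a5 at -0.06 ± 0.25 (SE).

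Gsta3, Gstt1 and Gsta2 had the highest log2 fold changes of the glutathione transferases. Other genes of their alpha and theta classes stood lower, with Gsta1 at 0.05 ± 0.24 (SE) and Gstt3 at -0.37 ± 0.39 (SE). Gstt1, a theta class enzyme, had normalized counts of 9.09, 12.6 and 6.92 in shControl and 23.2, 28.4 and 26.1 in shBrca2. The groups did not overlap. The log2 fold change was 1.43 ± 0.50 (SE) with an adjusted p of 0.192 by the DESeq2 likelihood ratio test and 0.0760 by the edgeR quasi-likelihood test, so that its call depended on the tool.

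Gsta3, an alpha class enzyme that also isomerizes steroid precursors, had 5.05, 8.39 and 3.96 normalized counts in shControl and 20.4, 17.0 and 13.9 in shBrca2 (log2 fold change 1.53 ± 0.62 SE, DESeq2 adjusted p = 0.344). Gsta2 had 25.3, 35.2 and 32.6 against 74.9, 41.6 and 44.4 (log2 fold change 0.77 ± 0.35 SE, DESeq2 adjusted p = 0.489). Neither gene overlapped between the groups. The tail of Gsta2 shared 66.2% of its windows with other alpha class genes and that of Gsta3 shared none.

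The transferases that make up most of the family had small fold changes. Gsto1, an omega class enzyme and the most abundant member of all, had normalized counts of 6700, 5322 and 5692 in shControl and 6591, 6107 and 6287 in shBrca2. These values overlapped, with 0.10 ± 0.14 (SE) as the log2 fold change and a 95% interval from -0.17 to 0.37. Gsta4, which conjugates the lipid peroxidation product 4-hydroxynonenal, stood at 0.27 ± 0.16 (SE), and Gstm1, a mu class enzyme, at 0.30 ± 0.16 (SE). Gstz1, of tyrosine breakdown, stood at 0.03 ± 0.23 (SE). Gstp1, the pi class enzyme, had a log2 fold change of -0.62 ± 0.41 (SE) at a mean normalized count of 34.0, with 83.4% of its tail windows shared with close copies.

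Of the 14 aldehyde dehydrogenases, the 2 with an unadjusted p under 0.05 were Aldh3a2 and Aldh3b1, both of which oxidize fatty aldehydes. Aldh3a2 had normalized counts of 213, 249 and 240 in shControl and 286, 332 and 339 in shBrca2. Aldh3b1 had 49.5, 84.7 and 66.2 against 85.8, 98.3 and 134. The groups did not overlap for either gene, narrowly so for Aldh3b1. Their log2 fold changes were 0.45 ± 0.17 and 0.67 ± 0.28 (SE), with DESeq2 adjusted p-values of 0.313 and 0.384.

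Aldh3a1, the most abundant of the family by 3′ end counts and known as a corneal aldehyde scavenger, had a log2 fold change of 0.04 ± 0.18 (SE). Aldh9a1, which makes a carnitine precursor, stood at -0.22 ± 0.19 (SE) and Aldh16a1 at -0.36 ± 0.24 (SE). Aldh1a1, which makes retinoic acid and is widely used as a marker of stem-like tumor cells, had normalized counts of 53.6, 37.7 and 26.7 in shControl and 55.8, 59.6 and 52.2 in shBrca2, so shBrca2 replicate 3 fell just below shControl replicate 1. Its log2 fold change was 0.51 ± 0.33 (SE) and was not called (DESeq2 adjusted p = 0.742).

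Of the 4 members that were lower without overlap, Cyp21a1 and Cyp4f17 are given above. Gsto2, which lies beside Gsto1, had 8, 9 and 9 raw counts in shControl and 1, 7 and 6 in shBrca2, with a log2 fold change of -0.84 ± 0.81 (SE). Aldh1l1, of folate metabolism, had 9, 14 and 11 against 5, 9 and 8 raw counts, with -0.51 ± 0.66 (SE). None was called, and all 4 had a mean normalized count under 11.

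Further letters were searched in the member promoters, among them the antioxidant response element core TGACNNNGC and the dioxin response element core GCGTG, on both strands. The first was present in 7 of 57 members, among them Cyp2c65 and Cyp4f14, which is 12.3% of members beside 14.0% of all genes with a window. The second was present in 22 of 57 members, among them Cyp1a1 and Cyp1b1, which is 38.6% of members beside 35.2% of all genes. The C/EBP letters TTGCGCAA were in 0 members and in 0.207% of all genes.

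The genes that regulate or serve these enzymes were read from the same fit. Of 20 listed regulators 15 were in the table and 0 were called by DESeq2 and 0 by edgeR, with a median log2 fold change of 0.04. Hnf4a is given above. Nr1h4, the bile acid receptor FXR, had normalized counts of 27.4 ± 3.0 in shControl and 50.9 ± 6.61 in shBrca2 (SD, n = 3) and a log2 fold change of 0.89 (DESeq2 adjusted p = 0.294). Rara, a retinoic acid receptor, stood at -0.64 (DESeq2 adjusted p = 0.400). These 3 genes were the ones with an unadjusted p under 0.05 in the list.

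Among the 12 electron partners and heme supply genes of P450, 0 were called by DESeq2, 0 by edgeR, and 1 had an unadjusted p under 0.05. That gene was Cyb5a, cytochrome b5, at a log2 fold change of 0.35 ± 0.16 (SE, DESeq2 adjusted p = 0.454). Cyb5r3, a cytochrome b5 reductase, stood at -0.33 ± 0.20 (SE), and the median of the list was 0.12.

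Of the 14 genes that supply the cofactors of conjugation, 12 (85.7%) had values above 0, beside 49.8% of all genes tested. Their median was 0.31, and 0 were called by DESeq2 and 0 by edgeR. An unadjusted p under 0.05 was found for 3, all higher, where 4.55% of all genes tested were higher at that threshold. Ugdh, which makes the UDP-glucuronic acid that Ugt enzymes use, had 995 ± 362 normalized counts in shControl and 1611 ± 256 in shBrca2 (SD, n = 3), which is 0.69 ± 0.23 (SE) on the log2 scale (DESeq2 adjusted p = 0.144). Gclc and Gclm, the subunits of the enzyme that limits glutathione synthesis, stood at 0.32 ± 0.16 and 0.28 ± 0.13 (SE).

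Of 33 other drug and aldehyde enzymes 21 were in the table, and the median was 0.25. A value above 0 was found for 17 of them (81.0%), beside 49.8% of all genes tested. Glyat, which conjugates acyl-CoA with glycine, was called at a log2 fold change of 3.12 ± 1.01 (SE, DESeq2 adjusted p = 0.0904), from a mean of 1.33 normalized counts in shControl to 11.2 in shBrca2, and was not called by edgeR. Maob at 2.10, Cbr3 at 0.49 and Mgst3 at 0.34 had an unadjusted p under 0.05 and were not called. Glyat, with 2, 0 and 2 raw counts in shControl, and Maob, with 4, 2 and 3, could be listed only through shBrca2. Nqo1, with 3, 4 and 0 raw counts in shBrca2, could be listed only through shControl. The abundant Adh5, the formaldehyde-clearing dehydrogenase, stood at 0.13.

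In steroid and retinoid handling, 16 of 26 listed genes were in the table, 15 were tested, and the median was 0.10. Dhrs3, a retinal reductase, was called, at 19.4 ± 6.17 normalized counts in shControl and 56.1 ± 3.86 in shBrca2 (SD, n = 3), which is 1.54 ± 0.37 (SE) on the log2 scale (DESeq2 adjusted p = 0.00607). Hsd17b10, a mitochondrial hydroxysteroid dehydrogenase, stood at 0.51 ± 0.16 (SE, DESeq2 adjusted p = 0.109). Rdh10, a retinol dehydrogenase, stood at -0.44 and was not called.

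Of 11 drug efflux transporters 9 were in the table and 8 were tested, with a median of 0.15. A value above 0 was found for 7 of the 8 (87.5%), beside 49.8% of all genes tested. The gene called in this list was lower in shBrca2: Abcb1b, a multidrug P-glycoprotein gene, fell from 102 ± 16.1 to 49.8 ± 6.51 normalized counts (SD, n = 3), with a log2 fold change of -1.02 ± 0.27 (SE, DESeq2 adjusted p = 0.0226). Its paralog Abcb1a stood at 0.18 ± 0.21 (SE). Abcg2 had a log2 fold change of 0.79 ± 0.39 (SE, DESeq2 adjusted p = 0.555), and the abundant Abcc5 stood at 0.12. Abcc2, without an adjusted p, had 1, 1 and 0 raw counts in shControl and 5, 6 and 7 in shBrca2. That gene could be listed only through shBrca2.

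Of 9 listed markers of enterocytes, the intestinal cells in which several of these enzymes are abundant, 5 were in the table and 3 were called higher in shBrca2, where 0.77% of all genes tested were called higher. For the 5 genes together, summed normalized counts were 253 to 275 in the shControl libraries and 408 to 464 in the shBrca2 libraries. Alpi at a log2 fold change of 2.39, Fabp1 at 2.85 and Vil1 at 0.89 were called by DESeq2, with adjusted p-values of 0.0273, 0.0193 and 0.00693. Fabp1 had 5, 2 and 1 raw counts in shControl and 16, 13 and 24 in shBrca2. It reached the 6 counts needed for listing in shBrca2 libraries only, so that its direction was set by the listing. Cdx2, which gave a large part of the sum, stood at 0.25 (DESeq2 adjusted p = 0.869) and Fabp2 at 0.10 without an adjusted p, while Cdx1, Lct, Sis and Apoa4 were not in the table. Of 8 hepatocyte markers 3 were listed, with sums of 31.9 to 48.4 in shControl and 63.3 to 106 in shBrca2, and Ttr, which pancreatic islet cells also make, was called at 1.34 (DESeq2 adjusted p = 0.0170). The rise of that sum was that of Ttr, with means of 27.3 in shControl and 68.7 in shBrca2, since Apoa1 stood at 0.17 and Apoa2 at -0.55, neither called. The ductal marker sum ran from 17674 to 18845 in shControl and from 16783 to 17612 in shBrca2, although Krt7 (1.21) and Sox9 (1.20) within it were called higher. Fibroblast, immune and acinar markers had 1 listed gene each and none was called. The part of these markers in the differences of the enzymes was not tested.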

How the data were processed

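RNA was counted in 3 shBrca2 and 3 shControl libraries of KPC cells. The authors deposited raw counts per gene symbol, neither normalized nor pooled. The submitters' processing notes name bcl2fastq, cutadapt, STAR 2.4.2a, HTSeq, DESeq2 and mm10, with no role or order. The annotation, the strand setting of the counting and whether molecular identifiers were used are not given in the sources used here. Groups came from the source name in the labels, which give no batch and no replicate number shared between groups.

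The whole table was fitted with DESeq2 1.42.0 in R 4.3.3, using median-of-ratios size factors, a likelihood ratio test comparing a group term with an intercept alone and Benjamini-Hochberg adjustment, with the thresholds of the study's methods. Fold changes were not shrunken. Of 10616 genes 9997 received an adjusted p, and 618 fell under the independent filter at a mean normalized count of 4.64. A normalized count is the raw count over the library's size factor. Count ratios compare summed counts per summed size factor and have exact 95% intervals, which cover counting error only. At these depths a gene of 3 counts or fewer per library is near the limit of detection. Alternatives were edgeR 4.0.16, a Wald test, other size factors, low-count filters and thresholds, and each library left out. The fitting was tested on simulated data.

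Named members were those called, those with an unadjusted p under 0.05 and the 4 most abundant of each family, with others named by level, position or lack of overlap. Members and lists were chosen with earlier results of these data known. Positions and promoters came from RefSeq on GRCm38.p6, the assembly called mm10. All 66 members matched by symbol and 57 had a promoter window. Shared tail windows and overlapping genes came from GENCODE vM39. Protein sequences were not analysed here. Results that need certain withheld items are not reported here.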

Additional observations from a re-analysis of the deposited data

How the results depend on the processing

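In place of 6 called members, 3 were called with TMM size factors, with total counts as size factors and with a filter of at least 10 counts in 3 libraries, and 1 to 5 when a library was left out. Cyp2c65, Akr1c12 and Akr1c13 were the 3 called under each of those 3 settings, which gave Ugt2b35, Sult1d1 and Cyp4f14 no adjusted p. The Wald test called 5 members, edgeR 6, of which 5 were among the 6, and an adjusted p under 0.05 called 5. No member was called lower under these alternatives. The median log2 fold change of the members was 0.085 with TMM factors, 0.083 with total counts and 0.075 with the 10-count filter, where 37, 39 and 36 members had an adjusted p, and 0.045 to 0.199 with a library left out. Over the same 62 members the median was 0.21 with TMM factors and 0.21 with total counts, so the lower value comes from the fewer scarce members tested. Among all genes tested, 127 were called, 77 higher and 50 lower, and with a library left out 47 to 140, of which 32 to 98 were higher and 15 to 45 lower.

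For single named genes, 330 of 361 values under an alternative stayed on the same side of 0 and of the threshold, 14 lost the threshold, 1 gained it and 16 changed sign, and 59 gave no value. Each change of sign came from leaving out a library in a gene near 0 that was not called. The leave-one-out ranges were -0.15 to 0.046 for Akr1a1, -0.23 to 0.18 for Akr7a5, -0.086 to 0.19 for Aldh3a1, -0.087 to 0.28 for Cyp20a1, -0.060 to 0.053 for Cyp2s1, -0.40 to 0.093 for Cyp4f16, -0.081 to 0.10 for Gstz1 and -0.11 to 0.35 for Sult2b1. The cause was not tested. Ratios of family shares moved by less than the spread between libraries under the alternatives tried. Low counts limit Ugt2b35, Sult1d1 and Cyp4f14 most. Groups of 3 libraries were not tested for outlying samples. No paired analysis was possible because the labels give the groups no shared replicate numbers.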
